A study of Homo sapiens with 4 samples.

Results

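This account follows 49 genes whose proteins build ribosomes in the nucleolus: RNA polymerase I with its initiation factors, the assembly factors of the small and the large ribosomal subunit, and 4 abundant nucleolar proteins that act at several steps. They were picked by name for their known function with earlier results of these data in view, and the core proteins of the snoRNA particles were left out. All 49 were found among the 58219 genes of the table and all 49 were among the 16340 genes with enough counts to test, the lowest member count in any library being 297. The cells were U87, an established human glioblastoma line, grown in high-glucose medium with serum. A day after seeding they received new medium that held either 50 mM carnosine (beta-alanyl-L-histidine, the carnosine group) or no carnosine (the control group), and total RNA was taken 24 h later. There were 2 libraries in each group, made as stranded total RNA libraries after depletion of ribosomal RNA. Nothing in the labels says that replicates came from separate cultures, so the p-values speak only of how far these samples scatter, and that scatter may be technical.

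Ribosomes begin with transcription of the ribosomal DNA by RNA polymerase I, which makes a single long precursor of the 18S, 5.8S and 28S RNAs. On this precursor the small subunit processome, a large particle of U3 snoRNA and proteins, folds and cuts the part that becomes the small subunit, while a separate set of factors assembles the large subunit. Helicases, GTPases and scaffold proteins then leave the maturing particles as these move to the cytoplasm. Growing cells spend much of their energy on this work, and many of these genes are textbook targets of the transcription factor MYC.

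Gene counts summed to between 51632970 and 71766267 per library. VIM and CD44, markers of mesenchymal glioblastoma lines, had at least 64968 counts in each library, and NES had 1426 to 2583. VIM had 7420 and 7040 CPM (counts scaled to the library's TMM-adjusted total) in the controls and 5590 and 5620 CPM with carnosine. CD44 had 1280 and 1110 CPM in the controls and 1320 and 1520 CPM with carnosine. Of the 5 genes tested in this marker list, edgeR called 0. Of the glial markers in the same list, S100B had 0 counts, SOX2 0 to 2 and GFAP 4 to 16, while OLIG2 had 253 and 241 counts in the controls and 105 and 126 with carnosine (log2 fold change -0.85, adjusted p = 0.0858, edgeR). Among markers of other cell types, CDH5, CLDN5, AIF1, CD3E, RBFOX3 and KRT20 had no count in any library. The summed level of the 5 immune markers was 24.6 and 23.1 CPM in the controls and 9.71 and 8.08 CPM with carnosine, nearly all of it CSF1R. CSF1R, the single immune marker with enough counts to test, was called lower at an adjusted p under 0.05 (log2 fold change -1.42, edgeR). The 5 endothelial markers, mostly PECAM1, summed to 2.35 and 3.05 CPM in the controls and to 6.98 and 5.70 CPM with carnosine. Of the 2 endothelial markers tested, 1 was called higher. The 5 neuron markers summed to between 31.2 and 38.0 CPM, with SNAP25 at a log2 fold change of -0.67 (adjusted p = 0.0625, edgeR) and GAD1 at 0.48 (0.146), and the 5 epithelial markers to between 1.37 and 2.23 CPM. In bulk RNA, fewer cells and less RNA per cell cannot be told apart.

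Some of the assembly factors had lower transcript levels in cells kept with carnosine, and none was called higher. Of the 49 members, 12 fell (24.5%) and 0 rose at an adjusted p under 0.05 (edgeR's quasi-likelihood test over all genes), where 4.36% of all genes tested fell and 3.95% rose. POLR1D, the single member above 0, had an unadjusted p of 0.225, and DESeq2 and limma-voom also called 0 members higher, where they called 6.32% and 3.84% of all genes higher. The log2 fold change lay below 0 for 48 of the 49 members, against 49.9% of all genes, and the median was -0.40, or 0.0009 over all genes. Both carnosine libraries were under both controls for 44 members (89.8%), against 28.8% of all genes tested, and above both for 1 member, against 27.8%. The members are well expressed, with a median standing at the 81.2 percentile of mean CPM. Among the 9177 genes at or above the control level of the lowest member, 6.89% fell and 55.5% had a log2 fold change below 0.

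**Figure D1:**
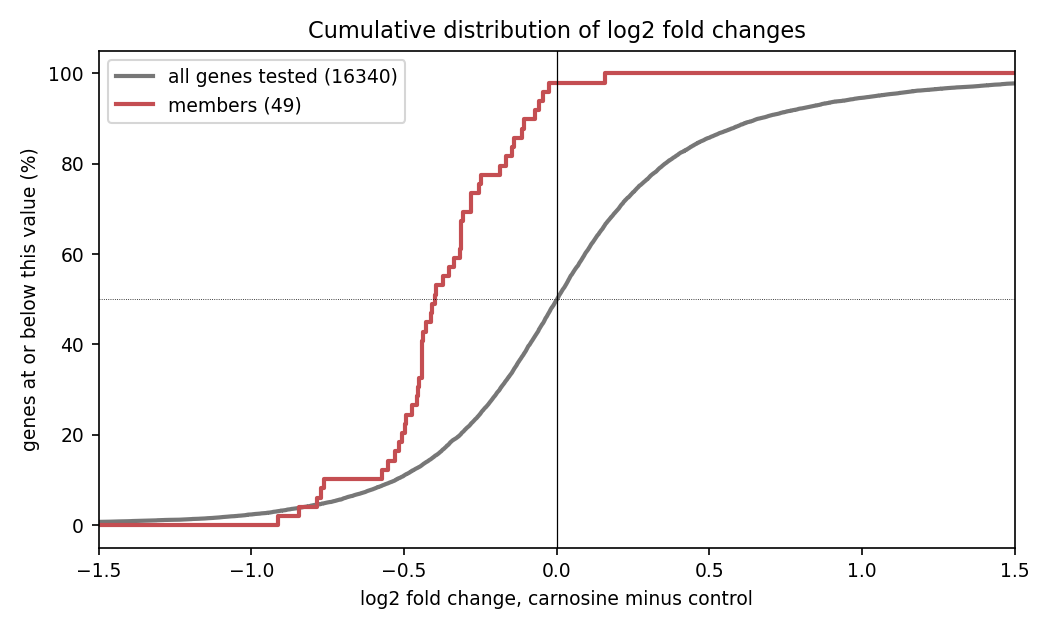
Cumulative share (%) of genes at or below each log2 fold change, carnosine minus control, for the 49 members and for all 16340 genes tested. The members' curve is shifted to the left, with its midpoint at -0.40, and 48 of 49 members lie below 0.

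The members that fell ranged from 1.36-fold lower for RRP12 to 1.88-fold lower for NOC4L. Of the 49 members, 5 both passed the test and were more than 1.5-fold lower, as did 2.74% of all 16340 genes tested. A further 16 members had an adjusted p between 0.05 and 0.10, all with a log2 fold change below 0, and 21 had a larger one. The count of falls was 4 without control replicate 1, 5 without control replicate 2, 7 without carnosine replicate 1 and 24 without carnosine replicate 2, where 1.72%, 1.57%, 3.94% and 5.03% of all genes fell. NOC4L, MRTO4, BOP1 and MYBBP1A were called lower in each of these 4 fits. With 1 library left out, the lone library of a group is assumed to vary like the other group. Other tools and filters moved the background too. Falls numbered 24 with DESeq2 (7.21% of all genes) and 13 with limma-voom (4.25%). DESeq2 added 12 members to the 12 of edgeR, among them NPM1, DDX21, PES1 and NOP14, and limma-voom added NOC2L. With no filter on low counts 28 members fell (6.25%), and with a replicate block 37 (18.3%). Other scalings gave 12 (DESeq2 size factors, 4.28%), 11 (upper quartile, 4.05%) and 15 (total counts, 3.26%), and a mean count of at least 10 gave 12 (4.41%).

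**Figure D2:**
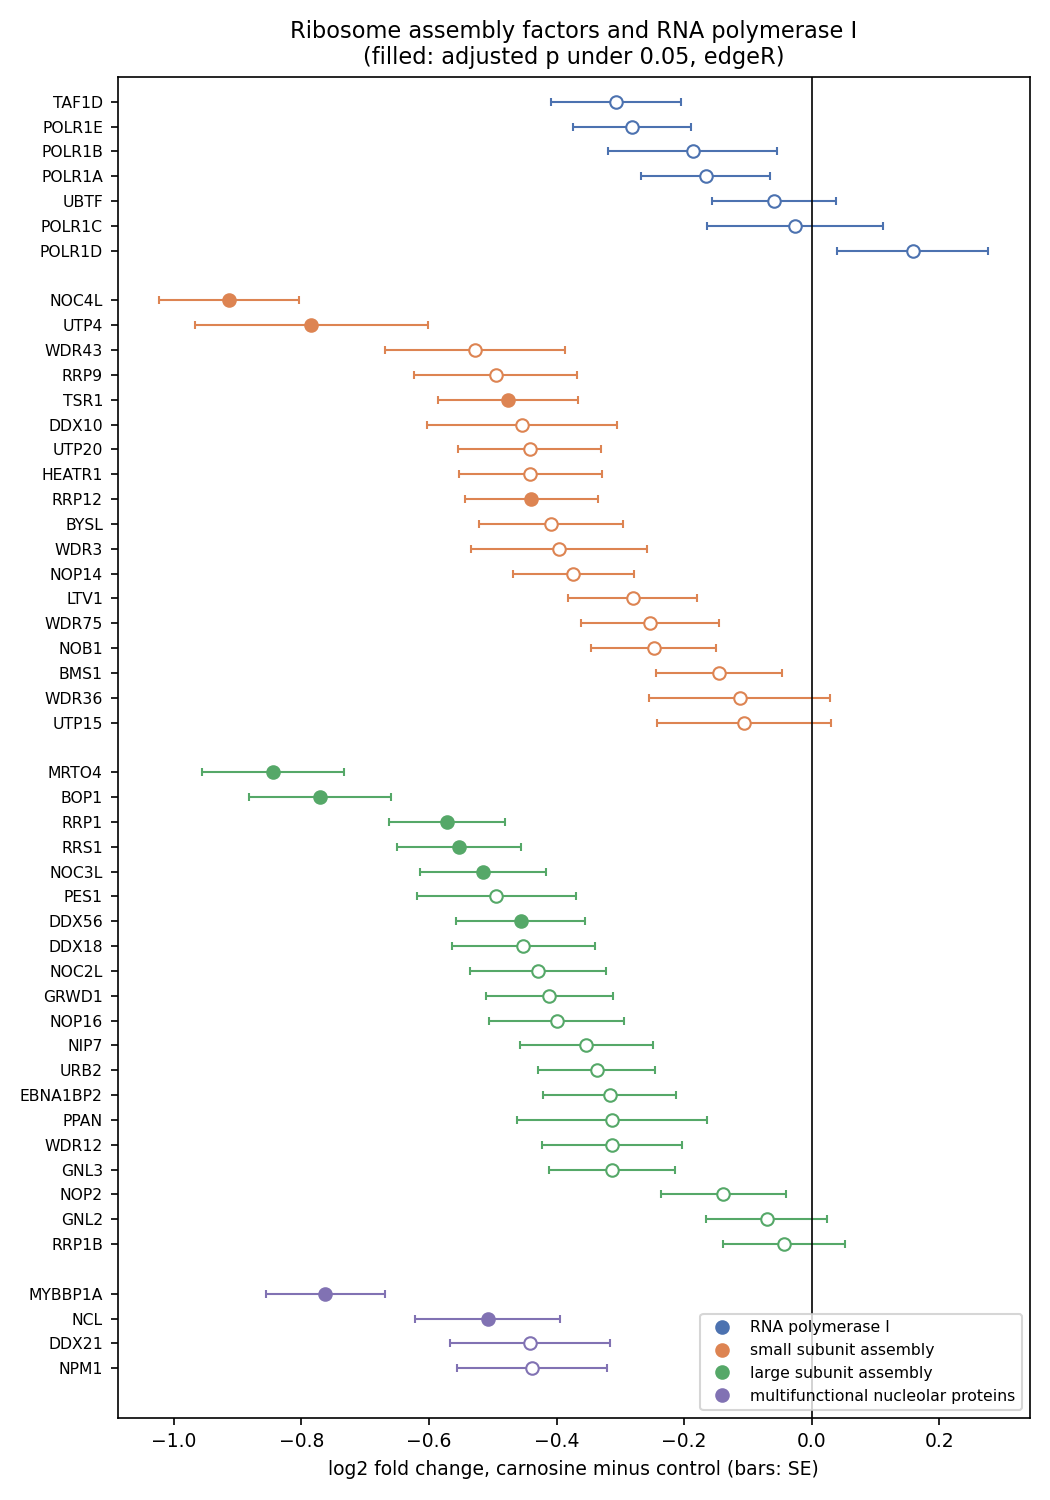
Log2 fold change, carnosine minus control, of all 49 members in 4 role groups, with bars of 1 SE. Filled circles passed the test, and POLR1D is the single member above 0.

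The 7 RNA polymerase I genes among the 49, which are not all of its subunits, had a median of -0.17, and 0 of them passed the test. A subunit outside the 49, CD3EAP, fell and is described with the other polymerase I factors. An unadjusted p under 0.05 (edgeR) was found for 2 of the 7, both lower, and for 4473 of all 16340 genes tested. DESeq2 and limma-voom called 0 of the 7, and a replicate block called 2 lower (POLR1E and TAF1D). The median was -0.15 and -0.07 without control replicates 1 and 2, -0.07 without carnosine replicate 1 and -0.20 without carnosine replicate 2. At an unadjusted p under 0.05, these fits gave lower genes only without carnosine replicate 2, and a higher gene without carnosine replicate 1. POLR1A, the largest subunit, which carries the catalytic site, had 170.0 and 166.0 CPM in the controls and 155.0 and 144.4 CPM with carnosine. Its groups did not overlap, but the log2 fold change of -0.17 ± 0.10 (SE, n = 2 each) did not pass (adjusted p = 0.340, edgeR). UBTF, the upstream binding factor that coats active ribosomal DNA, had 148.4 and 146.1 CPM in the controls and 138.5 and 144.2 CPM with carnosine (log2 fold change -0.06 ± 0.10, adjusted p = 0.745). That is a difference smaller than its standard error. The second largest subunit, POLR1B, had -0.19 with overlapping groups, and POLR1E, a subunit that works in initiation and elongation, had -0.28. TAF1D, a subunit of the promoter selectivity factor SL1, had -0.31 (adjusted p = 0.110), the lowest value of the 7.

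POLR1C and POLR1D are shared between RNA polymerases I and III. POLR1C had 21.4 and 22.3 CPM in the controls and 19.0 and 23.9 CPM with carnosine, so that the carnosine libraries lay on either side of the controls. Its log2 fold change was -0.03 ± 0.14 and turned to 0.13 without carnosine replicate 1. POLR1D had 34.7 and 34.1 CPM in the controls and 34.8 and 41.9 CPM with carnosine, a log2 fold change of 0.16 ± 0.12 (adjusted p = 0.442). It was the highest value of the 49, and most of it came from carnosine replicate 2, since without that library the value was 0.01. Exons of the opposite strand cover 18.2% of the exonic bases of POLR1C on chromosome 6, and whether counting used the strand is unknown.

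Among 18 small subunit factors, 4 fell, 0 rose and 14 did not pass, all 18 log2 fold changes lay below 0 and the median was -0.42. NOC4L, which pairs with NOP14 in the small subunit processome, had 35.5 and 32.2 CPM in the controls and 18.2 and 17.7 CPM with carnosine. On the log2 scale it fell by 0.91 ± 0.11 (SE, n = 2 each, adjusted p = 0.0123, edgeR), the largest fall of the 49, and both carnosine libraries stood far below both controls. Its partner NOP14 had 115.2 and 112.0 CPM in the controls and 85.9 and 89.4 CPM with carnosine, a log2 fold change of -0.37 ± 0.09 that did not pass (adjusted p = 0.0581). An antisense gene, NOP14-AS1, shares 17.1% of the exonic bases of NOP14 and fell by 0.94, and reads of the 2 could not be separated by a counting that ignores strand. The group held 1 fall without control replicate 1, 2 without control replicate 2 or carnosine replicate 1, and 9 without carnosine replicate 2.

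UTP4, or cirhin, belongs to the UTP-A complex, which binds the start of the precursor RNA and is also tied to its transcription. It had 12.7 and 10.3 CPM in the controls and 7.45 and 5.90 CPM with carnosine. The fall of 0.78 ± 0.18 on the log2 scale passed narrowly (adjusted p = 0.0469), with the widest error of the 49 members. Its call ended without control replicate 1 (adjusted p = 0.178), without carnosine replicate 2 (0.0763), under upper quartile scaling (0.0509) and under scaling to total counts (0.0750). Per kilobase of exon UTP4 had the lowest level of all members, 2.02 CPM in the controls. The other UTP-A members did not pass: WDR43 had a log2 fold change of -0.53, HEATR1 -0.44, WDR75 -0.25 and UTP15 -0.11. The carnosine libraries of UTP15, at 33.2 and 42.6 CPM, lay on either side of its controls.

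TSR1 and RRP12 act late, on particles that leave the nucleolus. TSR1, a GTPase-like protein that caps the maturing small subunit, had 140.4 and 155.9 CPM in the controls and 101.5 and 111.6 CPM with carnosine. On the log2 scale it fell by 0.48 ± 0.11 (adjusted p = 0.0460, edgeR), and 20.8% of its exonic bases lie under exons of the opposite strand. RRP12, a HEAT-repeat protein needed for export of both subunits, had 107.2 and 103.5 CPM in the controls and 73.1 and 82.3 CPM with carnosine, and fell by 0.44 ± 0.10 (adjusted p = 0.0490). For both, the groups were apart, and both calls ended without either control or without carnosine replicate 1 (adjusted p from 0.0963 to 0.253). Other late factors did not pass: BYSL had a log2 fold change of -0.41, LTV1 -0.28, and NOB1, the endonuclease that makes the final cut of 18S RNA, -0.25.

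The remaining processome proteins did not pass either, with log2 fold changes from -0.11 to -0.50. RRP9, the protein specific to the U3 particle, had -0.50, the helicase DDX10 -0.45, and the scaffold UTP20 -0.44. Of the UTP-B proteins WDR3 had -0.40 and WDR36 -0.11, and the GTPase BMS1 had -0.15. WDR36 had 102.0 and 132.7 CPM with carnosine against 122.0 and 131.7 CPM in the controls, so its groups overlapped.

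Among 20 large subunit factors, 6 fell, 0 rose and 14 did not pass, with a median log2 fold change of -0.41. Both carnosine libraries were under both controls for all 20. MRTO4, which holds the place of the stalk protein P0 on the immature large subunit, had 133.3 and 139.5 CPM in the controls and 70.4 and 81.5 CPM with carnosine. It fell by 0.85 ± 0.11 on the log2 scale (SE, n = 2 each, adjusted p = 0.0142, edgeR), or 1.80-fold. This was the second largest fall of the 49 and was called without any 1 of the 4 libraries. The counts of falls in this group were 2 without either control, and 4 and 11 without carnosine replicates 1 and 2.

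BOP1 forms the PeBoW complex with PES1 and WDR12, which is needed to process the precursor of 28S RNA. BOP1 had 102.1 and 88.8 CPM in the controls and 53.5 and 58.4 CPM with carnosine, and on the log2 scale it fell by 0.77 ± 0.11 (adjusted p = 0.0170). PES1 had 193.6 and 209.8 CPM in the controls and 130.0 and 156.3 CPM with carnosine, a log2 fold change of -0.49 ± 0.12 that did not pass (adjusted p = 0.0573). WDR12 had 58.6 and 68.5 CPM in the controls and 50.0 and 52.3 CPM with carnosine (log2 fold change -0.31, adjusted p = 0.124). All 3 subunits were lower in both carnosine libraries than in both controls, and BOP1 was the subunit to pass. Differences in response between the subunits were not tested.

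RRS1 helps to dock the 5S RNA particle on the large subunit. It had 40.8 and 42.1 CPM in the controls and 27.8 and 28.7 CPM with carnosine, and fell by 0.55 ± 0.10 (adjusted p = 0.0240). RRP1, also called NOP52, had 70.6 and 68.2 CPM in the controls and 46.7 and 46.6 CPM with carnosine, and fell by 0.57 ± 0.09 (adjusted p = 0.0197). Spread within the groups was small for both genes, yet both calls ended without control replicate 1 (adjusted p = 0.0802 for RRS1 and 0.0746 for RRP1) and without control replicate 2 (0.110 and 0.0623). RRP1B, the paralog of RRP1 on the same chromosome, had 134.6 and 133.8 CPM in the controls and 131.6 and 128.7 CPM with carnosine, a log2 fold change of -0.04 ± 0.10 (adjusted p = 0.817). This is the third highest value of the 49, and the difference between the paralogs was not tested.

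NOC3L and NOC2L form a pair that accompanies the large subunit out of the nucleolus. NOC3L had 62.5 and 68.6 CPM in the controls and 44.7 and 47.0 CPM with carnosine, and fell by 0.52 ± 0.10 (adjusted p = 0.0301). NOC2L had 260.5 and 259.8 CPM in the controls and 183.7 and 202.8 CPM with carnosine, a log2 fold change of -0.43 ± 0.11 that missed the threshold (adjusted p = 0.0550). Each of them was apart between the groups. Both genes passed with DESeq2 (adjusted p = 0.00229 for NOC3L and 0.00681 for NOC2L) and with limma-voom (0.0319 and 0.0496). The call of NOC3L ended without control replicate 1, control replicate 2 or carnosine replicate 1, and NOC2L did not pass in those fits either. With 1 library left out, the log2 fold change ran from -0.59 to -0.45 for NOC3L and from -0.51 to -0.36 for NOC2L.

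The helicase DDX56 had 168.3 and 160.1 CPM in the controls and 115.6 and 123.7 CPM with carnosine, and fell by 0.46 ± 0.10 (adjusted p = 0.0422). DDX18, another helicase of the large subunit, had 78.4 and 89.1 CPM in the controls and 57.6 and 64.7 CPM with carnosine (log2 fold change -0.45 ± 0.11, adjusted p = 0.0550). GRWD1, a chaperone of a ribosomal protein, had 55.2 and 52.2 CPM in the controls and 38.6 and 42.2 CPM with carnosine (-0.41 ± 0.10, adjusted p = 0.0514). These 3 genes differ little in size of change and stand on both sides of the threshold. The call of DDX56 ended without either control or without carnosine replicate 1 (adjusted p from 0.0862 to 0.209).

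The other large subunit factors had log2 fold changes from -0.40 to -0.07. NOP16 had -0.40, NIP7 -0.35, URB2 -0.34, EBNA1BP2 -0.32, PPAN -0.31 and GNL3, or nucleostemin, -0.31. NOP2, which methylates 28S RNA, had -0.14 and the GTPase GNL2 -0.07. Exons of the opposite strand cover over 10% of the exonic bases of 9 members: HEATR1 (23.2%), NIP7 and NOB1 (20.2% each), NOP16 (20.0%), EBNA1BP2 (18.8%) and WDR3 (17.1%), beside TSR1, POLR1C and NOP14. Same-strand exons of other genes cover 54.4% of NOP2, 34.8% of LTV1, 11.4% of RRS1 and 11.2% of TAF1D. The genes that overlap NOP2 and RRS1 are not among the genes counted here, so no read was assigned to them. The readthrough gene PPAN-P2RY11 and P2RY11 cover 59.8% of the exonic bases of PPAN on the same strand, so that its counts depend on how reads shared by genes were treated.

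Of the 4 nucleolar proteins that act at several steps, 2 fell and 0 rose, and the median was -0.47. MYBBP1A, the MYB-binding protein of the nucleolus, had 120.2 and 117.2 CPM in the controls and 69.1 and 70.8 CPM with carnosine. It fell by 0.76 ± 0.09 on the log2 scale (SE, n = 2 each, adjusted p = 0.0123, edgeR), with little spread in either group, and was called without any 1 of the 4 libraries. Nucleolin, encoded by NCL, binds the precursor RNA and chromatin of ribosomal DNA, and had 581.9 and 604.7 CPM in the controls and 396.5 and 437.8 CPM with carnosine. It fell by 0.51 ± 0.11 (adjusted p = 0.0425), a call that ended without control replicate 1 (0.157), control replicate 2 (0.234) or carnosine replicate 1 (0.0672). The group held 1 fall in each of those 3 fits and 4 without carnosine replicate 2.

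NPM1, or nucleophosmin, the chaperone that shapes the outer nucleolus, had the highest level of the 49, with 1160 and 1233 CPM in the controls and 853.4 and 913.3 CPM with carnosine. Its log2 fold change of -0.44 ± 0.12 did not pass (adjusted p = 0.0663). The annotation lists 45 pseudogenes named after NPM1, whose mean counts summed to 1968, and reads of such copies can be lost or shared. DDX21, a helicase that senses transcription by RNA polymerase I, had 244.8 and 260.1 CPM in the controls and 168.6 and 203.2 CPM with carnosine (log2 fold change -0.44 ± 0.12, adjusted p = 0.0748). Neither gene's groups overlapped.

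**Figure D3:**
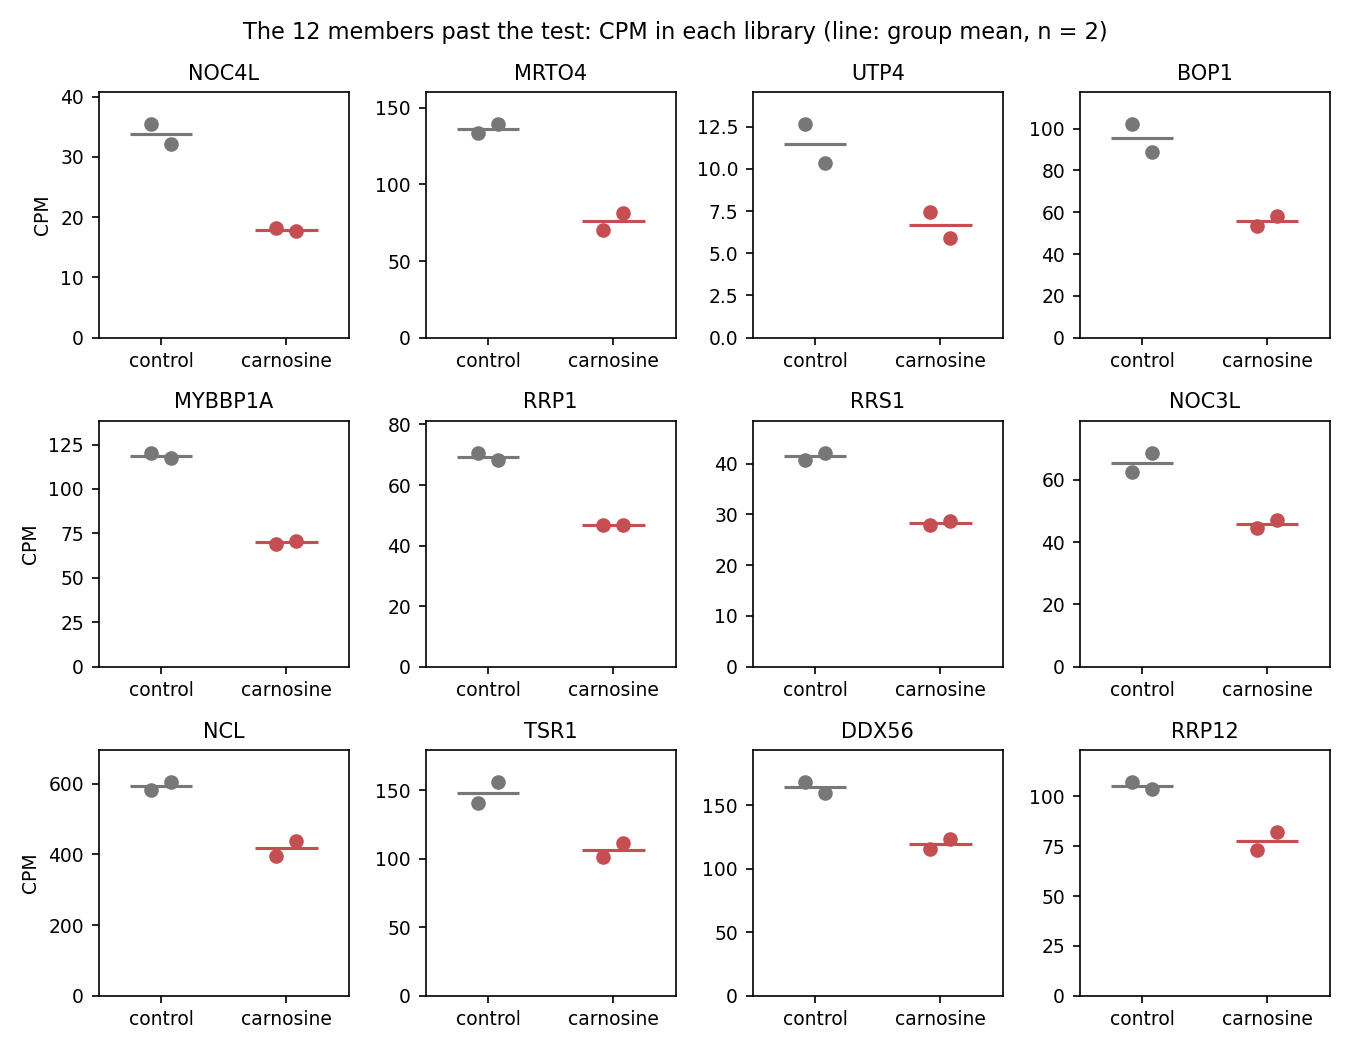
CPM in each library for the 12 members that passed the test, with points for the 2 libraries of each group and a line at the group mean. In every panel both carnosine libraries lie below both controls, and NCL is the highest of the 12 at 581.9 and 604.7 CPM in the controls.

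Levels per kilobase of exon spread widely in the controls, from 2.02 CPM for UTP4 to 312.6 CPM for NPM1. NCL followed NPM1 at 85.6, DDX21 stood at 50.3 and MRTO4 at 48.3 CPM per kilobase. Of the RNA polymerase I subunits, POLR1E stood at 29.9, POLR1A at 12.4, POLR1B at 9.82, POLR1C at 3.94 and POLR1D at 3.07 CPM per kilobase. With carnosine MRTO4 stood at 26.9 and NCL at 60.2 CPM per kilobase. These levels use the union of annotated exons, which overstates the transcript length of genes with many isoforms.

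**Figure D4:**
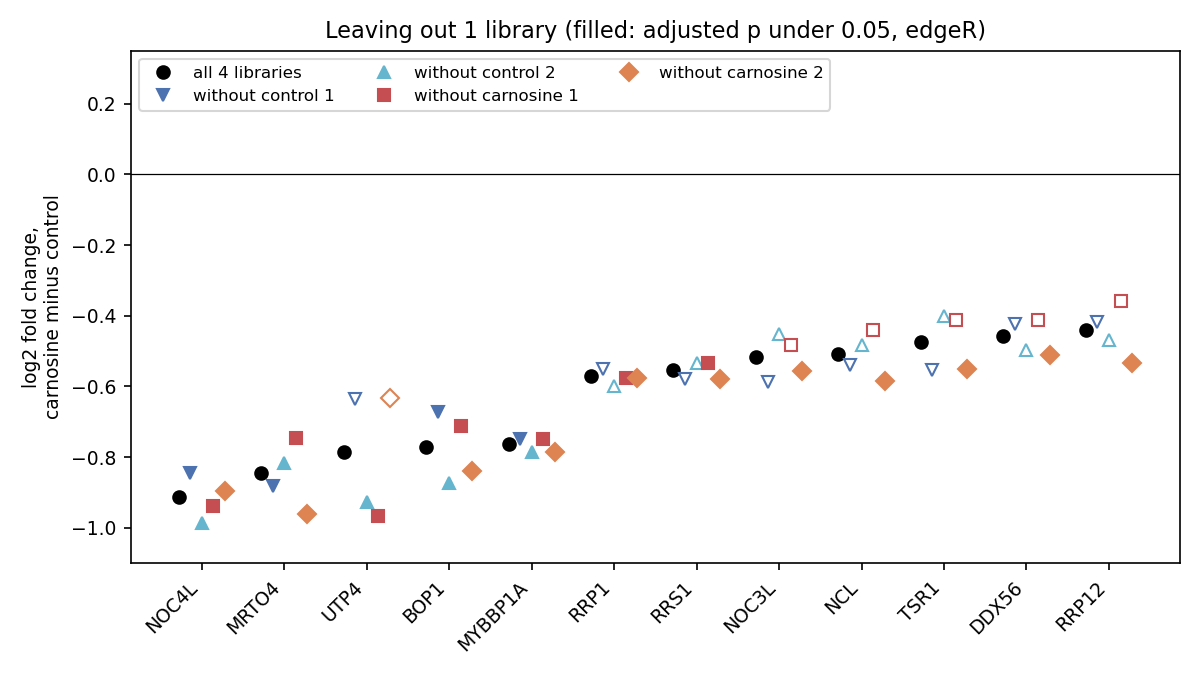
Log2 fold change, carnosine minus control, of the 12 members that passed, from all 4 libraries and with each library left out in turn. Filled symbols passed the test, all values are below 0, and NOC4L, MRTO4, BOP1 and MYBBP1A are filled throughout.

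Positions of the members that fell are given on GRCh38 with GENCODE 29. NOC4L spans 132144448 to 132152473 on chromosome 12 and MRTO4 19251539 to 19260128 on chromosome 1. BOP1 spans 144262102 to 144291370 and RRS1 66429028 to 66430733, both on chromosome 8. MYBBP1A spans 4538897 to 4555631 and TSR1 2322503 to 2337507, both on chromosome 17. UTP4 spans 69131291 to 69231130 on chromosome 16, RRP1 43789513 to 43805293 on chromosome 21, and DDX56 44565417 to 44575051 on chromosome 7. NOC3L spans 94333226 to 94362959 and RRP12 97356358 to 97426076, both on chromosome 10, and NCL 231453531 to 231483641 on chromosome 2. Introns and exons of 7 members hold 25 annotated snoRNA genes, among them SNORD91A and SNORD91B in TSR1. None of these 25 had more than 5 counts in a library, so the small RNAs themselves could not be compared.

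Promoters of the members often held the E-box CACGTG, the sequence that MYC with MAX and several other factors can bind. RefSeq windows of 250 bases before to 50 bases after a start site (GRCh38.p14) were found for 42 members, 50 windows in all, and not for POLR1E, RRP12, RRP1B, RRS1, BOP1, DDX18 and URB2. An E-box, which reads the same on both strands, was present in 34.0% of the members' windows, against 7.256% of all 35116 windows and 9.165% of the windows of genes tested. The matches clustered at the start site. In the 50 bases after it, 24.0% of the members' windows held an E-box, against 0.883% of all windows and 1.024% of those of genes tested. In the 250 bases before it, the members' share of 8.00% was close to that of all windows, 6.345%, and of genes tested, 8.108%. The split at the start site was chosen after the positions were seen, and nothing was tested. A match describes the letters and is neither a site nor a cause.

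The stretches below show the E-box in the 4 members that fell and have one. They also show it in 4 members that did not pass, those with the lowest adjusted p of the ones with an E-box after the start. Nearness to the start in these last 4 follows from that choice. Capitals mark the E-box, and each stretch is read 5′ to 3′ on the gene's strand.
MRTO4 (chr1:19251807-19251836, plus strand): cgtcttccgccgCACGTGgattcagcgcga
NOC3L (chr10:94362903-94362932, minus strand): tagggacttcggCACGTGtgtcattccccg
MYBBP1A (chr17:4555340-4555369, minus strand): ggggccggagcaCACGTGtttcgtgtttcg
UTP4 (chr16:69132621-69132650, plus strand): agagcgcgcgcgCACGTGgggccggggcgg
PES1 (chr22:30591880-30591909, minus strand): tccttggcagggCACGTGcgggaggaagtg
NOP14 (chr4:2963374-2963403, minus strand): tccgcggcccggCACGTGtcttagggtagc
WDR43 (chr2:28894658-28894687, plus strand): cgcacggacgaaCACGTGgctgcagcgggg
BYSL (chr6:41921515-41921544, plus strand): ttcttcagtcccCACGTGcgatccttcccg
Counted from 1 at the first base after the 250, the E-box begins at 15 in MRTO4, 20 in NOC3L, 28 in MYBBP1A, 14 in PES1, 16 in NOP14, 4 in WDR43 and 29 in BYSL. In UTP4 it begins 16 bases before the start. The flanking letters differ between genes.

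E-boxes were found both in members that fell and in members that did not pass. Of the 9 members that fell and have a window, 4 held an E-box, and of the 33 others 12 did. NOC4L, NCL, RRP1, DDX56 and TSR1 fell without one in these windows, while GNL2 and NOP2, with log2 fold changes of -0.07 and -0.14, held one. The ETS motif CCGGAAGT, read on both strands, was present in 22.0% of the members' windows, among them those of DDX56, NOC3L and UTP4. It was present in 4.138% of all windows and 7.145% of those of genes tested. In the 50 bases after the start, 0% of the members' windows held it, against 1.212% of those of genes tested. The NRF1 motif was present in 6% of the members' windows (MYBBP1A, DDX10 and NOB1) against 1.239% of all and 1.886% of those of genes tested. A palindrome around CGCG was present in 2% (NOP14), against 0.424% and 0.721%. No match of a motif overlapped one of another motif in the members' windows.

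**Figure D5:**
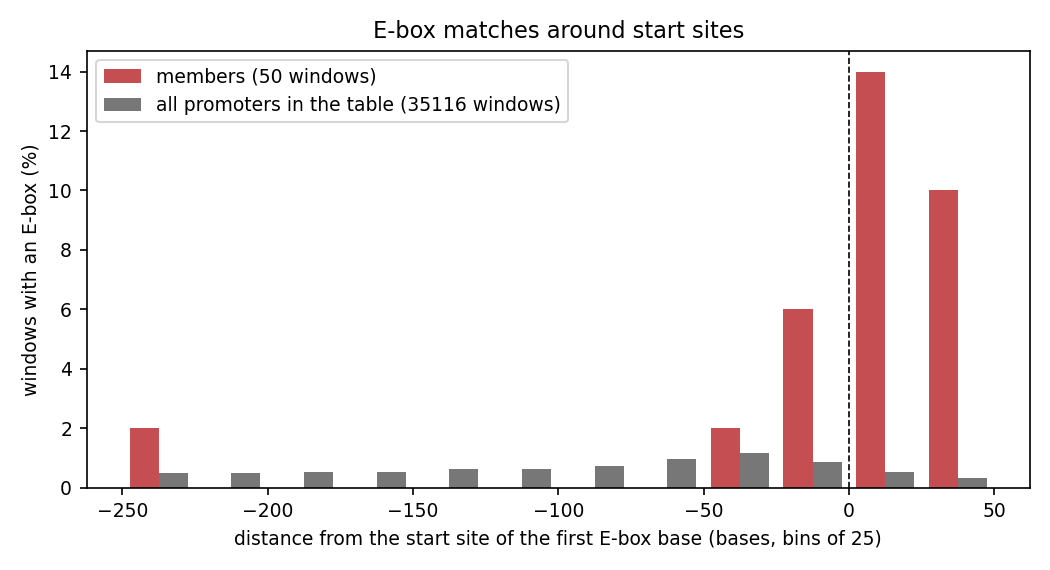
Share (%) of promoter windows with an E-box whose first base lies in each 25-base bin around the start site, for the 50 windows of members and all 35116 windows. The members' bars reach 14% and 10% in the bins after the start, where all windows have 0.544% and 0.342%.

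The 107 further assembly genes tested outside the 49 include the 14 of the RNA exosome list, which is described under other observations. Of the 107, 23 fell (21.5%, against 4.36% of all genes tested), 1 rose and 83 did not pass. A log2 fold change below 0 was found for 89 (83.2%, against 49.9% of all genes), and the median was -0.25. Of 15 other RNA polymerase I factors tested, there were 4 falls and 0 rises, and their median log2 fold change was -0.33. CD3EAP, a polymerase I subunit also named POLR1G, had 36.3 and 44.7 CPM in the controls and 18.8 and 21.4 CPM with carnosine, and fell by 1.01 ± 0.14 (adjusted p = 0.0156, edgeR). PWP1 and TTF1, a chromatin factor and the terminator of polymerase I, fell by 0.55 and 0.56. Exons of the opposite strand cover 45.1% of CD3EAP. Fewer of these polymerase I factors passed with either control left out, and as many with either carnosine library left out. Their median moved to -0.15 with control replicate 1 left out, to -0.20 with control replicate 2 or carnosine replicate 2 left out, and to -0.25 with carnosine replicate 1 left out.

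Of 38 other small subunit factors, 7 fell and 0 rose (median -0.24). RRP7A fell by 0.92 ± 0.10, DIMT1, the methylase of 18S RNA, by 0.87 ± 0.13, and UTP6 of the UTP-B complex by 0.51 ± 0.09 on the log2 scale. Leaving out either control gave 2 falls, leaving out carnosine replicate 1 gave 4, with the median at -0.15, and leaving out carnosine replicate 2 gave 12. Of 40 other large subunit factors, 6 fell and 1 rose (median -0.24), and without either control 0 fell, with 12 and 9 at an unadjusted p under 0.05. LAS1L, of the complex that removes a spacer of the precursor, fell by 0.57, URB1 by 0.56 and MAK16 by 0.60. NMD3, the export adaptor of the large subunit, was named here after its value was seen. It had 96.1 and 88.6 CPM in the controls and 137.3 and 123.5 CPM with carnosine. On the log2 scale NMD3 rose by 0.50 ± 0.11 (adjusted p = 0.0389, edgeR). That call ended without either control and without carnosine replicate 1.

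MYC, named here outside the rule for named genes, and proliferation genes were read beside these results. MYC had 86.6 and 84.5 CPM in the controls and 51.7 and 74.0 CPM with carnosine, a log2 fold change of -0.44 ± 0.17 that did not pass (adjusted p = 0.142, edgeR). Of 9 MYC family genes tested, edgeR called 0, with 2 lower and 1 higher at an unadjusted p under 0.05. Such a p was found for 4473 of all 16340 genes tested. DESeq2 called 1 of the 9 higher and limma-voom 0. MGA and MLX, partners in the MYC network with the highest mean CPM of the 9, had log2 fold changes of 0.24 and -0.29. All 13 proliferation markers had a log2 fold change below 0, with a median of -0.52, and 6 fell (PCNA and 5 of the MCM helicase genes). Their summed level was 5040 and 4330 CPM in the controls and 3410 and 3580 CPM with carnosine, and 0 and 2 fell without control replicates 1 and 2. The part of this shift in the levels of the assembly factors was not tested.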

How the data were processed

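The authors deposited raw counts per gene as whole numbers, with no normalization. The tools named in the submitters' processing notes are HTSeq 0.6.1, HISAT2 2.1.0 and bcl2fastq 2.17.0, with the build hg38. Not given in the sources used here are the annotation release, the strand setting and the treatment of reads with several matches. Columns were matched to samples by title, and 0 columns of other samples were present.

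From these counts, edgeR 4.0.16 in R 4.3.3 kept genes by filterByExpr (a count of at least 10 in 2 libraries or the equivalent CPM, total of at least 15), scaled libraries by TMM and tested group with the quasi-likelihood F test, two-sided, with 2 residual degrees of freedom. P-values were adjusted by Benjamini-Hochberg over all 16340 genes, with a threshold of 0.05. The SE is the absolute log2 fold change divided by the square root of F and is approximate. Fits with DESeq2 1.42.0 and limma 3.58.1, other scalings and filters, a replicate term and each library left out were alternatives. Replicates were not copies of a library (chi-square 36.6 and 57.6 times its degrees of freedom).

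Members and lists were chosen with earlier results of these data known. Members past the test were named with all values, as were the 2 with the highest CPM in a group with under 2 calls, the 3 highest log2 fold changes and the 3 lowest adjusted p values that missed. In other lists up to 3 calls by smallest p, or without calls the 2 genes with the highest CPM, were named. MYC, NMD3, POLR3K and DIS3 are additions chosen after values were seen. Other members are given by log2 fold change, with some values per library (NOP14, PES1, WDR12, UTP15, WDR36, NPM1 and DDX21) added after they were seen. Positions come from GENCODE 29 and promoters from RefSeq (GRCh38.p14).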

Additional observations from a re-analysis of the deposited data

How the results depend on the processing

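The count of members that fell was 12 and became 28 with no filter on low counts, 24 with DESeq2 and 37 with a replicate block, while all genes called went from 1358 to 3145, 2211 and 5767. With 1 library left out in turn, it ranged from 4 to 24 for members and from 505 to 1595 for all genes. The replicate block rests on numbers in the titles: deviations of the same-numbered libraries from their group means correlated at 0.315 over 16340 genes, but with 2 pairs and no label on shared cultures the libraries share only a number. Upper quartile scaling (11), total counts (15), limma-voom (13), DESeq2 size factors (12) and a mean count of at least 10 (12) gave counts within 1.5 times. The members' median stayed between -0.48 and -0.32. Of 240 values of the 20 named members, 202 kept direction and side of the threshold, 23 lost it, 14 gained it and POLR1C reversed, its value with 1 library left out running from -0.20 to 0.13 (without carnosine replicate 1). The cause was not tested. The share of members' windows with an E-box was 8.00% in the bases before the start. In the 50 bases after it 0% held the ETS, NRF1 or palindrome motif. Of the windows of genes tested, 1.212% held the ETS motif there, 0.141% the NRF1 motif and 0.027% the palindrome. With 2 libraries a group, the smallest change called among members was -0.44 (RRP12), and NPM1 at -0.44 ± 0.12 and POLR1E at -0.28 ± 0.09 did not pass.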

Other observations

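The RNA exosome is the 3′ to 5′ ribonuclease that trims the precursors of ribosomal RNA. Of its 14 genes and nuclear cofactors tested, which are counted among the 107 assembly genes above, 6 fell, 0 rose and 8 did not pass. Their median log2 fold change stood at -0.47. EXOSC3 had 57.4 and 58.3 CPM in the controls and 36.4 and 38.2 CPM with carnosine, and on the log2 scale it fell by 0.64 ± 0.09 (SE, n = 2 each, adjusted p = 0.0170, edgeR's quasi-likelihood test). EXOSC8 fell by 0.80 ± 0.12 and EXOSC2 by 0.70 ± 0.11. DIS3, a catalytic subunit named here after its value was seen, had a log2 fold change of 0.09 with overlapping groups. The count was 4 without control replicate 1, 1 without control replicate 2, and 6 and 7 without carnosine replicates 1 and 2.

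RNA polymerase III, which makes 5S RNA and transfer RNAs, showed falls in 4 of 19 genes tested and no rise, with a median of -0.22. POLR3C had 34.6 and 37.9 CPM in the controls and 21.0 and 22.6 CPM with carnosine, and on the log2 scale it fell by 0.73 ± 0.11 (adjusted p = 0.0174, edgeR). POLR3E fell by 0.56 and POLR3G by 0.82, and the fourth was POLR3K. Most of these calls ended with either control left out, while their number changed little with either carnosine library left out. The median of the list was -0.20 without either control, and -0.22 and -0.25 without carnosine replicates 1 and 2. Both lists were drawn up by function with earlier results of these data known, and 4.36% of all genes tested fell.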
